A study of Rattus norvegicus with 48 samples.

Results

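The miR-183/96/182 cluster was followed along the rat nephron through 3 of the 188 mature miRNAs in the table, rno-miR-182, rno-miR-96-5p and rno-miR-3553, all of which passed the authors' filter on low counts. They were chosen by name and genome position, with earlier results of these data known. miR-182 and miR-96-5p are made from the cluster itself, and miR-3553 is annotated on the opposite strand of the miR-183 gene. No arm of miR-183 is among the 188 columns. Nephron segments were cut by laser capture from 8 µm frozen kidney sections of 3 untreated male Sprague Dawley rats at 6 months of age, and small RNA was sequenced from each segment as 50 bp single-end reads. The groups were the collecting duct, the thick ascending limb and the proximal tubule with 3 libraries each, 1 per rat, and the glomerulus with 2 libraries, from rats 1 and 3. No group received a treatment. Collecting duct was recognised by antibody staining for aquaporin-2, thick ascending limb by Tamm-Horsfall protein and proximal tubule by glutathione S-transferase, all under fluorescence, whereas glomeruli were picked after a histochemical stain, so stain type and segment cannot be told apart in comparisons with the glomerulus.

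A miRNA is cut from a hairpin in a longer transcript and guides Argonaute to messenger RNAs that pair with its seed, the bases near its 5′ end. The miR-183/96/182 cluster is transcribed as one unit in vertebrates and is best known from sensory cells, the photoreceptors and the hair cells of the inner ear, where changes in the miR-96 seed cause progressive hearing loss in mice and people. miR-182 is also known in other epithelia and from tumours, with transcripts of FoxO factors among its targets. The collecting duct carries the final adjustment of water and salt, the thick ascending limb reabsorbs salt without water, the proximal tubule reabsorbs most of the filtrate and the glomerulus is the filter made of podocytes, capillary endothelium and mesangial cells.

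The mature sequences from RefSeq are shown because they decide what each column can hold; build GRCr8 was used for sequences and coordinates, while the authors' processing notes name rn6. Capitals mark the seed, bases 2 to 8 from the 5′ end.
rno-miR-182, chr4:59752249-59752273, minus strand: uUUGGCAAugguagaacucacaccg
rno-miR-96-5p, chr4:59755901-59755923, minus strand: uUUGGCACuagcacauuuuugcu
rno-miR-183-5p, chr4:59756106-59756127, minus strand, no column in the table: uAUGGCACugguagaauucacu
rno-miR-3553, chr4:59756105-59756127, plus strand: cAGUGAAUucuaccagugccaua
The seeds of miR-182 and miR-96-5p had the same base at 6 of 7 positions, and those of miR-96-5p and miR-183-5p likewise at 6 of 7. Counted from the 5′ end, miR-182 had the same base as miR-183-5p at 18 of 22 positions and the same base as miR-96-5p at 12 of 23. No other column shared the seed of a member, among the 172 columns with a RefSeq mature sequence.

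The reverse complement of miR-3553 contains all 22 bases of miR-183-5p, and the hairpins of the pair overlap by 106 bases on opposite strands. Both hairpins are printed with the mature miRNA in capitals.
Mir183: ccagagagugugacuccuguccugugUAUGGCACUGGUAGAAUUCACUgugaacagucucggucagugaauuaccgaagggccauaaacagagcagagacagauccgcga
Mir3553: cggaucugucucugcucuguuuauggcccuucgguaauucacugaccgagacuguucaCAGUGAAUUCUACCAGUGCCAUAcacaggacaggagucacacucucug
On the minus strand the hairpins of Mir96 and Mir183 lie 97 bases apart and those of Mir182 and Mir96 lie 3533 bases apart, and the 4 hairpins span 3908 bases. Whether the counting used the strand of a read is not given in the sources used here. RefSeq lists 46 pairs of mature miRNAs that overlap by at least 15 bases on opposite strands. In 17 pairs only 1 miRNA is a column, as with miR-3553 and miR-183-5p, and in 6 pairs both are. In 4 of these 6 pairs both columns held the same value in 44 of 44 runs, within a relative tolerance of 0.0001: let-7a-5p with miR-3596a, miR-181a-1-3p with miR-3570, miR-3557-3p with miR-378a-5p and miR-3574 with miR-210-3p. In the other pairs the columns differed, with summed values of miR-125b-5p at 0.989 times those of miR-3588 and of miR-3590-5p at 0.0228 times those of miR-130a-3p. Reads of miR-3553 and of miR-183-5p therefore cannot be told apart in the miR-3553 column, and every value of miR-3553 below is a value of that column.

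**Figure D1:**
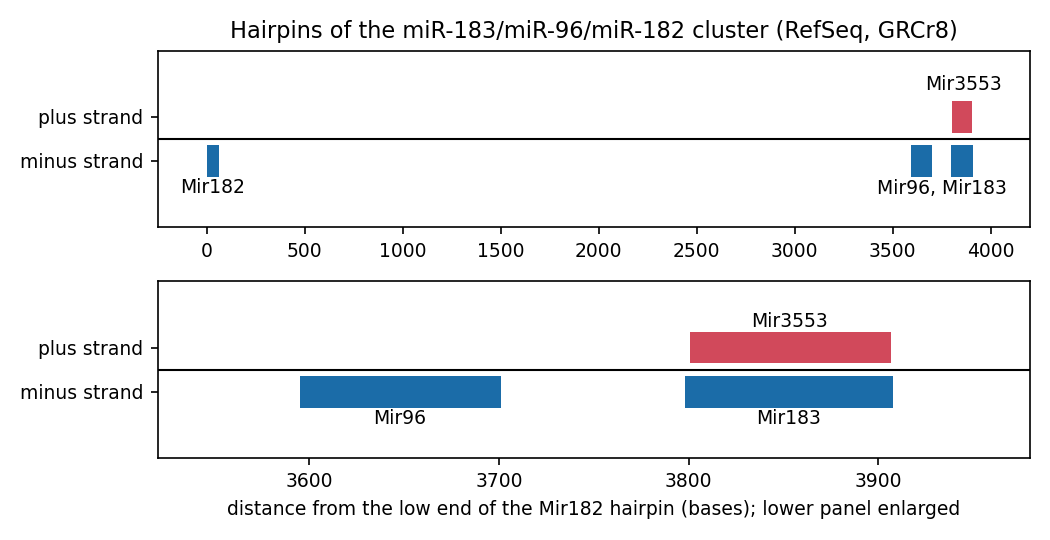
Hairpins of the cluster on RefSeq GRCr8, drawn to scale as distance in bases from the low end of Mir182, with minus-strand hairpins in blue and the plus-strand hairpin in red; the lower panel enlarges the right end. Mir182 lies 3533 bases from Mir96, and Mir3553 overlaps Mir183 by 106 bases on the opposite strand.

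The values are TMM-normalised signals, and each library value is the mean of 4 runs on separate flow cells. Estimated from the spacing of the low values, a library held between 147996 reads of the 188 miRNAs (glomerulus, rat 3) and 1296993 (thick ascending limb, rat 3). The proximal tubule markers miR-192-5p and miR-194-5p, 2 of 3 listed and both above 0 in every library, summed to 1259–2340 in collecting duct, 2181–4280 in thick ascending limb, 21130–26367 in proximal tubule and 777–1424 in glomerulus. No marker miRNA of collecting duct or thick ascending limb was listed. The endothelial pair miR-126a-3p and miR-126a-5p (2 of 2) summed to 1935–3170, 1158–1633, 1249–1801 and 4299–6290 in the same order of segments. The smooth muscle and mesangial miRNAs miR-143-3p and miR-145-5p (2 of 3) summed to 6635–8080, 4781–6094, 6119–8034 and 10382–16388. Blood cell miRNAs, 2 of 8 listed, summed to 73.0–118, 25.1–39.0, 24.1–51.6 and 78.7–117. In such bulk samples, fewer cells of a type and less RNA per cell cannot be told apart.

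miR-182 was the abundant member, highest in the collecting duct of 3 of 3 rats and scarce in the glomerulus. It had values of 4192, 14580 and 8811 in the collecting duct of rats 1, 2 and 3, 2101, 3373 and 2299 in thick ascending limb, 1385, 2613 and 6072 in the proximal tubule, and 58.9 and 62.6 in the glomerulus of rats 1 and 3. By TMM value, every collecting duct library lay above every thick ascending limb and glomerulus library. The ranges of collecting duct and proximal tubule overlapped because the proximal tubule of rat 3 exceeded the collecting duct of rat 1. Segment means were 9194 ± 5204 in collecting duct, 2591 ± 684 in thick ascending limb and 3357 ± 2431 in proximal tubule (SD, n = 3 each), and 60.8 ± 2.58 in glomerulus (SD, n = 2).

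These levels rested on many reads in the tubules and on few in the glomerulus. The miR-182 reads numbered 17094, 45366 and 29884 in the collecting duct, 3176, 9429 and 17343 in thick ascending limb, 5095, 13865 and 6937 in the proximal tubule, and 293 and 122 in the glomerulus. miR-182 ranked 8, 3 and 4 by value among the 188 miRNAs in the collecting duct of rats 1, 2 and 3, and 72 and 56 in the glomerulus of rats 1 and 3. As a share of the summed values of a library, which does not depend on its scaling, miR-182 took 4.23% ± 1.76 in collecting duct, 1.91% ± 0.873 in thick ascending limb, 1.77% ± 1.00 in proximal tubule (SD, n = 3 each) and 0.0583% ± 0.0319 in glomerulus (SD, n = 2). The shares of collecting duct and thick ascending limb overlapped, at 2.28% in the collecting duct of rat 1 and 2.91% in the thick ascending limb of rat 2.

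With 1 library per rat and segment, the spread between rats also holds that of capture and library preparation. The SD of log2(value + 1) of miR-182 between rats was 0.90 in collecting duct, 0.36 in thick ascending limb and 1.07 in proximal tubule, against a median SD over the 4 runs of a library of 0.063, 0.051 and 0.096 in the same segments. Rat 1 had the lowest TMM value of miR-182, miR-96-5p and miR-3553 in each of the 3 tubule segments. By share of the summed values, miR-182 in thick ascending limb was instead lowest in rat 3, at 1.34% against 1.47% in rat 1. Within a rat, the collecting duct value of miR-182 was 2.00, 4.32 and 3.83 times that of the thick ascending limb in rats 1, 2 and 3, and 3.03, 5.58 and 1.45 times that of the proximal tubule.

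The test of segment was limma's moderated F-test on log2(value + 1) with rat as a block, adjusted by the Benjamini-Hochberg method over the 188 miRNAs with a threshold of 0.05. It called 3 of 3 members, against 24.5% of the 188 miRNAs, with an adjusted p of 1.4e-36 for miR-182, 6.8e-20 for miR-3553 and 0.038 for miR-96-5p. As miR-96-5p passed the filter on low counts only through tubule libraries, its F-test is not independent of that filter. limma estimated 1 variance for miRNAs of like abundance, and the smallest p rest on it: without the variance trend the adjusted p from limma were 0.0011, 0.0039 and 0.038 in the same order. An exact permutation of segments within rats, which uses each miRNA alone and has a smallest possible p of 0.00174 over 3456 arrangements, gave p = 0.00694 for miR-182, 0.0104 for miR-3553 and 0.0521 for miR-96-5p. Adjusted over the 188 miRNAs, these exact permutation p were 0.115, 0.115 and 0.185, and the exact test called 0 of the 188 miRNAs (0%), 50 of which had an unadjusted p under 0.05; permuted without the rat block, the test called 34. In that permutation without the block, miR-182 reached an adjusted p of 0.0235 and miR-3553 one of 0.0407, while miR-96-5p had 0.193.

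In pairwise comparisons by limma, miR-182 rose in collecting duct over each other segment. Over the glomerulus the log2 difference was 6.86 ± 0.52 (SE; adjusted p = 5.8e-34 with limma and Benjamini-Hochberg), the rank 2 difference among 188, and the ratio of mean values was 151. Over the thick ascending limb it was 1.68 ± 0.45 (adjusted p = 0.014 with limma), and over the proximal tubule 1.54 ± 0.45 (adjusted p = 0.0082 with limma). The differences between tubule segments were less firm than those against the glomerulus. The call over the thick ascending limb was lost when libraries were scaled to the same total (1.14, adjusted p = 0.051 with limma) or quantile normalised (1.42, 0.068), with flow cell D alone (1.65, 0.18), without the variance trend (1.68, 0.35), and without any 1 of the collecting duct or thick ascending limb libraries or the proximal tubule of rat 2 (1.34 to 1.92, adjusted p up to 0.38). The call over the proximal tubule was lost without the variance trend (adjusted p = 0.16 with limma) and without the proximal tubule of rat 1 or 2 or the collecting duct of rat 2 or 3 (1.18 to 1.62, adjusted p from 0.055 to 0.28).

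miR-182 was also higher in the other tubule segments than in the glomerulus. The log2 difference was 5.18 ± 0.52 in thick ascending limb (SE; adjusted p = 8.5e-20 with limma) and 5.32 ± 0.52 in proximal tubule (adjusted p = 7.2e-21 with limma). The thick ascending limb and proximal tubule did not pass the test against each other, at −0.14 ± 0.45 with a 95% interval of −1.03 to 0.75 (adjusted p = 0.91 with limma). The order of levels was thus collecting duct first and glomerulus last, with the thick ascending limb and proximal tubule not separated beyond their spread.

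**Figure D2:**
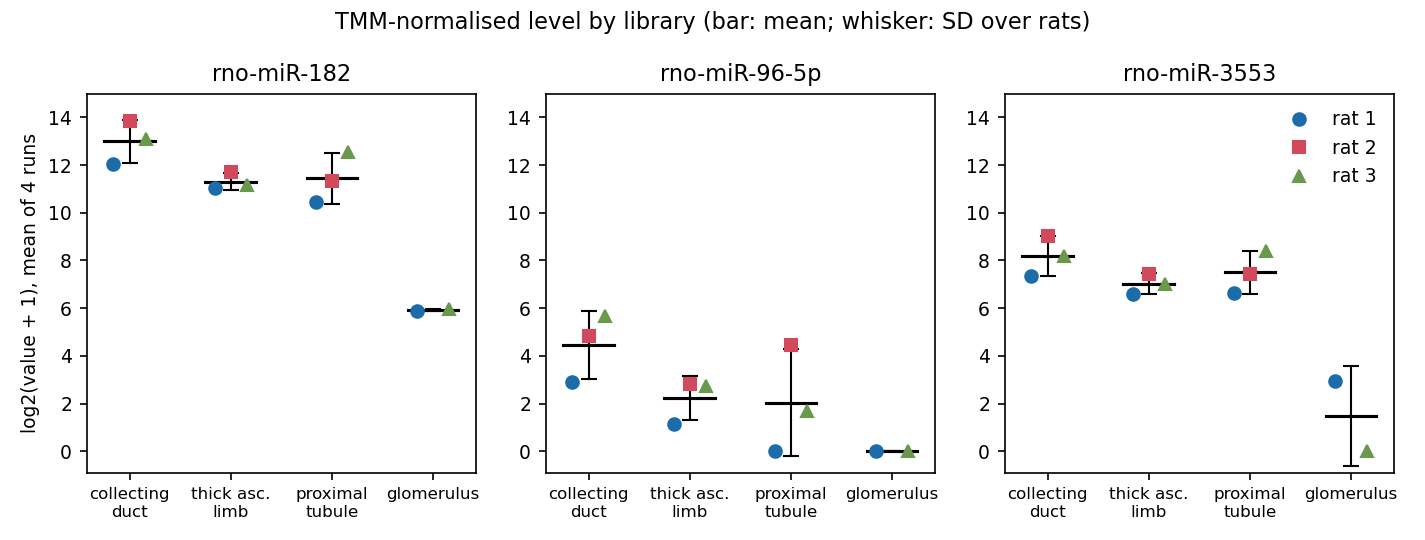
Level of each member by nephron segment as log2(value + 1), averaged over 4 runs; points are libraries, coloured by rat, bars are segment means and whiskers the SD over rats. The collecting duct mean is the highest of each panel, and the glomerulus libraries lie below all tubule libraries for miR-182 and miR-3553, while miR-96-5p is listed at 0 in both glomerulus libraries and in the proximal tubule of rat 1.

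miR-96-5p, the member of the cluster tied to hearing, followed the same broad order at levels far below those of miR-182. Its values were 6.81, 28.4 and 49.6 in the collecting duct of rats 1, 2 and 3, 2.21, 6.58 and 5.60 in thick ascending limb, 0, 20.8 and 5.15 in the proximal tubule, and 0 in both glomerulus libraries. By TMM value, every collecting duct library exceeded every thick ascending limb library, by a narrow margin between rat 1 collecting duct and rat 2 thick ascending limb. As a share of the summed values this pair was reversed, at 0.00370% in rat 1 collecting duct and 0.00568% in rat 2 thick ascending limb. The proximal tubule of rat 2 exceeded the collecting duct of rat 1. The reads behind these values were 26, 91 and 168 in the collecting duct, 4, 17 and 41 in thick ascending limb, and 0, 110 and 7 in the proximal tubule, with 0 reads in the glomerulus.

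miR-96-5p was listed at 0 in 0 of 12 collecting duct runs, 2 of 12 thick ascending limb runs, 6 of 12 proximal tubule runs and 8 of 8 glomerulus runs. A floor of 3 reads equals 0.381 over both glomerulus libraries, 0.613 in rat 1 and 1.57 in rat 3, counting error only. The thick ascending limb value of rat 1, 2.21, lay near the glomerulus floor of rat 3. Mean values were 28.2 ± 21.4 in collecting duct, 4.80 ± 2.30 in thick ascending limb and 8.64 ± 10.8 in proximal tubule (SD, n = 3 each). In proximal tubule the SD over rats exceeded the mean.

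limma called miR-96-5p only in collecting duct over glomerulus, with a log2 difference of 3.90 ± 1.21 (SE; adjusted p = 0.011), a size that depends on the pseudocount because the glomerulus is at 0 (2.37 with a pseudocount of 4 and 4.74 with 0.5). Among the libraries analysed, miR-96-5p passed the filter on low counts only through the tubules, so that call is not independent of the filter. That call was lost without the glomerulus of rat 3 (2.90, adjusted p = 0.21 with limma), without the collecting duct of rat 3 (3.11, 0.14), with quantile normalisation (2.92, 0.060), with flow cell D alone (3.76, 0.085) and with array weights by segment (3.83, 0.31). The overall F-test of miR-96-5p likewise moved to between 0.051 and 0.15 in 8 of 14 other settings and up to 0.36 when 1 library was left out. Over the thick ascending limb the collecting duct difference was 2.24 ± 1.05 (adjusted p = 0.32 with limma), and over the proximal tubule 2.42 ± 1.05 (adjusted p = 0.13 with limma). By TMM value the collecting duct was the highest segment for miR-96-5p in 3 of 3 rats. This order depended on scaling in rat 2, where miR-96-5p took 0.0119% of the summed values in proximal tubule and 0.0111% in collecting duct.

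The miR-3553 column, antisense to miR-183, was high in all tubule segments and near 0 in the glomerulus. It had values of 162, 525 and 288 in the collecting duct of rats 1, 2 and 3, 94.7, 175 and 130 in thick ascending limb, 101, 174 and 342 in the proximal tubule, and 7.15 and 0 in the glomerulus of rats 1 and 3. The 3 tubule segments overlapped, and the lowest tubule library, at 94.7, lay far above the higher glomerulus library. The reads were 657, 1614 and 965 in the collecting duct, 144, 471 and 987 in thick ascending limb, 382, 928 and 392 in the proximal tubule, and 33 and 0 in the glomerulus.

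Segment means of miR-3553 were 325 ± 184 in collecting duct, 133 ± 40.0 in thick ascending limb and 205 ± 123 in proximal tubule (SD, n = 3 each), and 3.57 ± 5.05 in glomerulus (SD, n = 2). By limma, the log2 difference from the glomerulus was 6.50 ± 0.69 in collecting duct (SE; adjusted p = 2.3e-18), 5.34 ± 0.69 in thick ascending limb (adjusted p = 1.4e-12) and 5.82 ± 0.69 in proximal tubule (adjusted p = 6.5e-15). Among 188 miRNAs these ranked 3, 1 and 1 by size. Their SE uses the shared SD of 0.73 that limma gives miRNAs of this abundance, whereas the residual SD of miR-3553 itself was 1.18. Their size rested on the glomerulus library of rat 3, where the column is listed at 0: without it the differences were 4.52, 3.35 and 3.83, and without the glomerulus of rat 1 they were 8.49, 7.32 and 7.80, each still past the threshold.

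Among tubule segments miR-3553 did not pass the test. Collecting duct exceeded thick ascending limb by 1.17 ± 0.60 (adjusted p = 0.37 with limma), with a 95% interval of −0.0033 to 2.33, and this difference passed once the glomerulus was left out of the fit (adjusted p = 0.017 with limma) or either glomerulus library was (0.029 and 0.032). Collecting duct differed from proximal tubule by 0.69 ± 0.60, with a 95% interval of −0.48 to 1.86 (adjusted p = 0.50 with limma). The collecting duct was highest in 2 of 3 rats, and in rat 3 its value was 0.842 times that of the proximal tubule.

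Read as a group, 3 of 3 members were higher in collecting duct than in glomerulus, against 11.2% of the 188 miRNAs. Of these, miR-96-5p passed the filter on low counts only through tubule libraries, so its call is not independent of that filter. In thick ascending limb over glomerulus 2 of 3 were higher, against 7.98%, and in proximal tubule over glomerulus 2 of 3, against 13.8%. Within the tubule, 1 of 3 members was higher in collecting duct than in thick ascending limb, against 2.13%, and 1 of 3 higher than in proximal tubule, against 4.26%. Between thick ascending limb and proximal tubule limma called 0 of 3 members, with unadjusted p from 0.42 to 0.86, against 7.98% called in either direction. The comparisons with 1 segment in common share that segment's libraries.

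How many miRNAs were called in each direction depended on the scaling. The median log2 difference of all 188 miRNAs between collecting duct and glomerulus was 0.61 with the TMM values, −0.11 with libraries scaled to the same total, 0.07 with median-of-ratios scaling and −0.07 with quantile normalisation. The calls numbered 21 higher and 7 lower, 19 and 31, 22 and 22, and 19 and 25 in the same order of scalings. In the same order, the higher and lower calls were 4 and 0, 1 and 4, 5 and 4, and 1 and 4 for collecting duct over thick ascending limb, and 8 and 11, 13 and 25, 22 and 19, and 19 and 18 for collecting duct over proximal tubule. They were 15 and 6, 21 and 22, 24 and 21, and 14 and 18 for thick ascending limb over glomerulus, and 26 and 7, 29 and 21, 29 and 22, and 21 and 19 for proximal tubule over glomerulus. For thick ascending limb over proximal tubule they were 2 and 13, 7 and 15, 8 and 14, and 9 and 13. The collecting duct difference of miR-182 over the glomerulus ranged from 6.00 to 7.09, and that of miR-3553 from 5.28 to 7.05, over 13 other settings, well above these shifts.

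**Figure D3:**
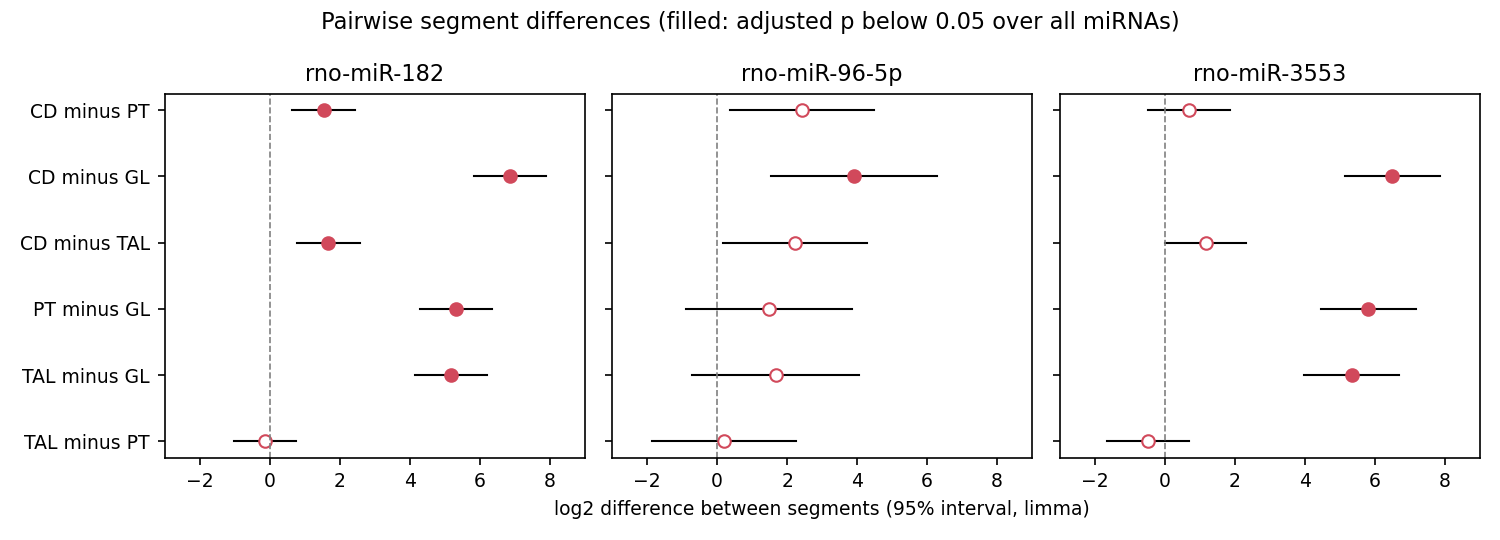
Pairwise log2 differences between segments for each member with 95% intervals from limma; CD is collecting duct, TAL thick ascending limb, PT proximal tubule and GL glomerulus, and filled points have an adjusted p below 0.05 over 188 miRNAs. miR-182 is called in 5 of 6 comparisons, miR-3553 in 3 and miR-96-5p in 1.

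The ratio of the cluster's columns within a library does not depend on scaling, although each miRNA is captured with its own efficiency, so ratios are compared only across libraries. Reads of miR-3553 per 100 reads of miR-182 numbered 3.84, 3.56 and 3.23 in the collecting duct of rats 1, 2 and 3, 4.53, 5.0 and 5.69 in thick ascending limb, and 7.50, 6.69 and 5.65 in the proximal tubule. Every collecting duct library lay below every other tubule library, and thick ascending limb and proximal tubule met in rat 3. Means were 3.54 ± 0.307 in collecting duct, 5.07 ± 0.582 in thick ascending limb and 6.61 ± 0.926 in proximal tubule (SD, n = 3 each).

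The exact 95% counting intervals of the collecting duct libraries reached up to 4.16, those of the thick ascending limb began at 3.81 and those of the proximal tubule at 5.09, since the thick ascending limb of rat 1 had only 144 reads of miR-3553. Single runs ranged from 2.97 to 4.11 in collecting duct, 4.16 to 6.38 in thick ascending limb and 4.99 to 8.38 in proximal tubule, so no collecting duct run overlapped a run of another tubule segment. The glomerulus gave 11.3 in rat 1, with an exact 95% interval of 7.61 to 16.2, and 0 in rat 3, with 122 reads of miR-182 and an exact 95% interval of up to 3.07. The glomerulus libraries thus lay on both sides of all tubule libraries, on few reads.

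Over all 11 libraries the log2 ratio of miR-3553 to miR-182 did not pass the test of segment (exact permutation within rats, p = 0.637, also 0.637 adjusted over the 3 ratios tested). In the tubule segments alone, a test added after the values had been seen, the exact permutation gave p = 0.0556, or 0.167 adjusted over the 3 ratios, where 0.0278 is the smallest p the 216 arrangements allow. The test over all segments includes the glomerulus of rat 3, where miR-3553 is at 0 and the log2 ratio is set by the pseudocount. With a pseudocount of 4 its adjusted exact permutation p was 0.0156. With the glomerulus of rat 1 left out, the segment rested on the library of rat 3 alone, whose log2 ratio is set by the pseudocount. With that of rat 3 left out, it rested on the library of rat 1 alone. Neither fit can show the spread within the glomerulus, so no p is given for them.

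Reads of miR-96-5p per 100 reads of miR-182 numbered 0.152, 0.201 and 0.562 in the collecting duct, 0.126, 0.180 and 0.236 in thick ascending limb, and 0, 0.793 and 0.101 in the proximal tubule. The 0 in the proximal tubule of rat 1 has an exact 95% interval of up to 0.0724, and the ranges of the 3 segments overlapped. Tests over all segments say nothing of the ratios with miR-96-5p, because both glomerulus libraries hold 0 reads of it and their log2 ratios are set by the pseudocount. In the tubule segments alone, the exact permutation within rats gave p = 0.75 for this ratio and 0.361 for that of miR-3553 to miR-96-5p, or 0.75 and 0.542 adjusted over the 3 ratios, and the proximal tubule of rat 1, at 0 reads, enters these at the pseudocount too.

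**Figure D4:**
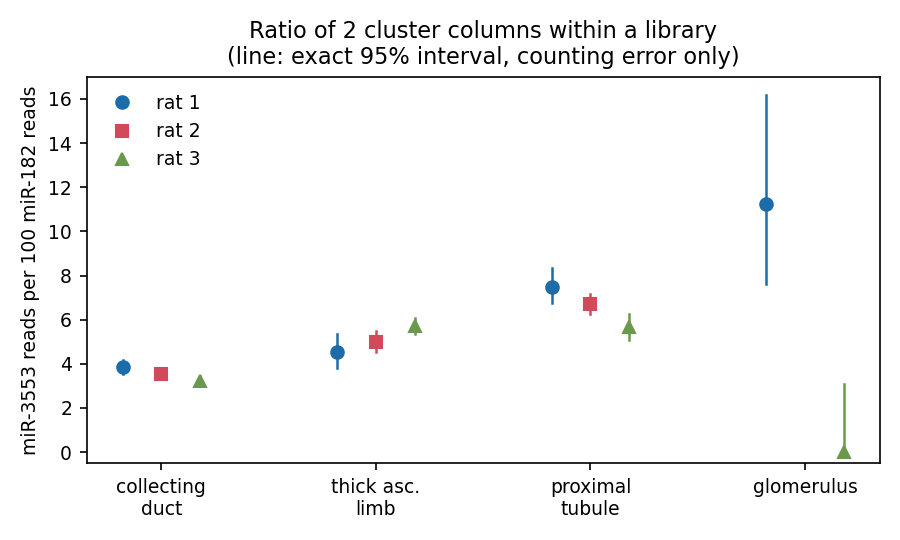
Reads of miR-3553 per 100 reads of miR-182 in each library by nephron segment; points are libraries, marked by rat, and lines are exact 95% intervals that cover counting error only. The collecting duct libraries, at 3.23 to 3.84, lie below the thick ascending limb (4.53 to 5.69) and the proximal tubule (5.65 to 7.50), and the glomerulus libraries, at 11.3 and 0, have wide intervals.

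Across the 11 libraries, which share rats and segments, miR-182 and miR-3553 were each other's closest match among the other 187 miRNAs, with a Pearson r of 0.96 (Spearman 0.95) between log2 values. Within the 9 tubule libraries r was 0.95. Both columns of a library also share its scaling, and the source of the match was not tested. miR-96-5p was less close, at r = 0.76 with miR-182 and 0.69 with miR-3553. Among 125 miRNAs with a mean value of at least 10, the next most like miR-182 were miR-429 at r = 0.93, miR-200b-3p at 0.90, miR-141-3p at 0.84 and miR-423-3p at 0.82. Those most like miR-3553 after miR-182 were miR-200b-3p at 0.95, miR-200a-3p and miR-429 at 0.90 each and miR-672-5p at 0.89. The list for miR-96-5p opened with miR-30a-3p at 0.80 and miR-92b-3p at 0.78, followed by miR-182, miR-31a-5p at 0.74 and miR-9a-5p at 0.73.

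**Figure D5:**
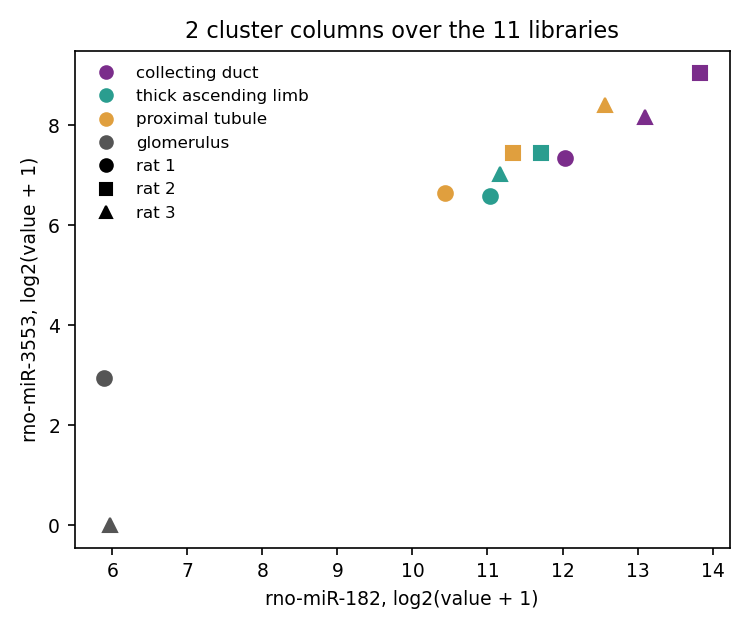
Level of miR-3553 against miR-182 in the 11 libraries, both as log2(value + 1), coloured by segment and marked by rat. The 9 tubule libraries lie along a line (Pearson r = 0.95) and the 2 glomerulus libraries stand apart at the low end.

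The miR-200 family, known for keeping epithelial cells epithelial, was set beside the cluster because it marks tubule epithelium. The epithelial markers miR-200a-3p, miR-200b-3p, miR-141-3p and miR-429, 4 of 5 listed, summed to 827–1595 in collecting duct, 412–792 in thick ascending limb, 429–673 in proximal tubule and 36.1–128 in glomerulus, where 1 of them was at 0 in rat 3. Their sum moved with miR-182 between glomerulus and tubules and was highest in collecting duct, and their part in the result was not tested. Of the 5 measured family members, the 4 above with miR-200b-5p, 4 were higher and 0 lower in collecting duct than in glomerulus, against 11.2% of all miRNAs higher, with a median log2 difference of 3.93 against 0.61 over all miRNAs. They ran from miR-200b-5p at 2.24 ± 1.19 (adjusted p = 0.20 with limma) to miR-141-3p at 6.28 ± 0.76 (adjusted p = 2.8e-14 with limma). Between collecting duct and proximal tubule, 1 of the 5 passed the test, against 4.26% of all miRNAs higher, namely miR-141-3p at 3.54 ± 0.66 (adjusted p = 3.8e-06 with limma), and the other log2 differences ran from 0.52 for miR-200a-3p to 1.99 for miR-200b-5p.

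Of 7 miRNAs listed as known from sensory organs together with the cluster, 3 were measured. miR-9a-5p, a miRNA of neural tissue, averaged 58.9 in collecting duct and 0.448 in glomerulus, a log2 difference of 5.56 ± 1.17 (adjusted p = 3.3e-05 with limma). miR-375-3p, known from endocrine and epithelial cells, averaged 207 in collecting duct, 589 in thick ascending limb, 825 in proximal tubule and 18.9 in glomerulus. It was lower in collecting duct than in proximal tubule (−1.85, adjusted p = 0.0057 with limma), where miR-182 was higher in collecting duct. miR-9a-5p went the other way in that comparison, at 4.59 ± 1.01 (adjusted p = 0.00017 with limma), so the list had 1 member higher and 1 lower. miR-204-5p, abundant in the eye and in kidney epithelium, averaged 26.6 in collecting duct and 43.8 in glomerulus and did not pass the test (−0.85, adjusted p = 0.57 with limma). In collecting duct over glomerulus 2 of the 3 were higher and 0 lower, against 11.2% of all miRNAs higher, with a median log2 difference of 3.31 against 0.61 over all miRNAs.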

How the data were processed

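The deposited table holds a signal for 188 mature miRNAs in 44 runs. Per the file's name, these are TMM-normalised counts with miRNAs of low counts filtered out, and the order of the steps is not given there. Per the submitters' processing notes, Partek 6.0, Bowtie2 2.2.5, Bowtie 1.0.0 and rat build rn6 were used. The 4 runs of a further glomerulus library of rat 3, marked as removed by the submitters, were not analysed. Rats were taken as labelled. Runs of a library are technical repeats: a library's value is the mean log2(value + 1) of its 4 runs, and n counts rats. Linear values are means over runs.

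Low values (up to 30 reads) lay on multiples of 1 step per run, taken as the value of 1 read, in 88.5% to 99.0% of cases within 0.03 reads; 129 of 132 values of the members were whole within 0.03 and 132 within 0.1. No count test was run, because not every value was whole. Read numbers, floors (3 reads) and exact 95% intervals come from these steps and cover counting error only.

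Segments were compared with limma 3.58.1 in R 4.3.3 (segment and rat as terms, variance trend, two-sided, Benjamini-Hochberg over 188 miRNAs, threshold 0.05) and with exact permutation within rats in Python 3.11.15 (scipy 1.17.1). Both were run on simulated data with independent noise, equal spread in all segments and no rat effect. Those runs therefore say nothing of spread that differs between rats, segments or miRNAs of like abundance. Segments of 1 rat come from 1 animal, which is why rat is a block; after subtraction of segment means, libraries of the same rat had a median r of 0.07 (15 pairs) and libraries of different rats −0.04 (30 pairs). Alternatives changed the pseudocount, flow cell, scaling, variance trend, filter, weights, block and libraries.

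The members, marker lists and lists of related miRNAs were chosen with earlier results of these data known. The members are always named, with the 5 miRNAs most like each by Pearson correlation among those with a mean of at least 10, and list members with their counts. Sequences are from RefSeq, matched by miRNA name for 172 of 188 columns.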

Additional observations from a re-analysis of the deposited data

How the results depend on the processing

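In every alternative run, miR-182 and miR-3553 kept their F-test call. Their calls in each tubule segment over glomerulus were also kept, in the same direction, wherever the glomerulus was fitted. Over all values of the members and their ratios, 35 lost a call, 12 gained a call and 11 changed sign. The other 578 count as unchanged, but they include comparisons never called and shares of summed values, which have no threshold. Leaving out 1 library cannot move a mean share beyond its SD over rats, so those shares say nothing of stability. For miR-182, collecting duct minus thick ascending limb lost its call with flow cell D alone (1.65), no variance trend (1.68), the same total (1.14) and quantile normalisation (1.42), and collecting duct minus proximal tubule lost it with no variance trend (1.54). Leaving out 1 library gave ranges of 1.34 to 1.92 and 1.18 to 2.15. The difference thick ascending limb minus proximal tubule, not called in any setting, changed sign for miR-182 with the same total (0.17) and median-of-ratios scaling (0.34; −0.51 to 0.47 leaving out 1 library), for miR-96-5p with a pseudocount of 4 (−0.13) and flow cell B alone (−0.082; −0.32 to 1.14), and for miR-3553 with median-of-ratios scaling (0.0029; −0.92 to 0.28).

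The adjusted p of the F-test of miR-96-5p missed the threshold with flow cell C (0.062) or D (0.15), the same total (0.072), median-of-ratios scaling (0.060), quantile normalisation (0.088), a mean of at least 10 (0.066), array weights (0.075) and tubule segments only (0.051), and ranged from 0.0079 to 0.36 leaving out 1 library. Its collecting duct minus glomerulus call was lost with flow cell D (3.76), quantile normalisation (2.92) and array weights (3.83; 2.90 to 4.91 leaving out 1 library). Collecting duct minus proximal tubule of miR-96-5p passed with array weights (2.42, adjusted p = 0.040 with limma) and tubule segments only (2.42, 0.044), and collecting duct minus thick ascending limb of miR-3553 with tubule segments only (1.17; 0.83 to 1.59 leaving out 1 library). The exact permutation p of the ratios, adjusted over 3 ratios, was 0.0156 for miR-3553 to miR-182 with a pseudocount of 4, and leaving out 1 library it ranged from 0.0104 to 0.583 for miR-96-5p to miR-182, 0.0417 to 0.806 for miR-3553 to miR-182 and 0.0104 to 0.372 for miR-3553 to miR-96-5p. The ratios with miR-96-5p say nothing over all segments, since the pseudocount sets them in glomerulus. Other causes were not tested.

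Without the replicate block, the adjusted exact permutation p fell to 0.0235 for miR-182 and 0.0407 for miR-3553, the count of miRNAs higher or lower between collecting duct and thick ascending limb was 7 against 4 with the block, and the block changed no other call of a member. The count of all miRNAs called was 46 in the F-test (28 to 70 in other settings, 33 to 85 leaving out 1 library), and pairwise 19 (15 to 44, 10 to 40) for collecting duct minus proximal tubule, 28 (14 to 50, 20 to 67) for collecting duct minus glomerulus, 4 (1 to 26, 0 to 26) for collecting duct minus thick ascending limb, 33 (16 to 51, 20 to 73) for proximal tubule minus glomerulus, 21 (11 to 45, 15 to 44) for thick ascending limb minus glomerulus and 15 (5 to 39, 5 to 37) for thick ascending limb minus proximal tubule. Depth limits miR-96-5p, with 0 to 168 reads a library, and the glomerulus, with 33 and 0 reads of miR-3553.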
